A study of Mus musculus with 2 samples.

Results

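The general transcription activators Sp1, Sp2, Sp3, Sp4 and Oct1, whose mouse gene is Pou2f1, were followed on arrays that compared polysome-bound with other RNA in NIH3T3 cells. NIH3T3 is an established mouse embryo fibroblast line. Members were all transcript spots whose gene name on the array equalled one of these 5 symbols, on both arrays. They numbered 9 spots, each a different printed sequence of 60 bases, for 7 accessions, of 43379 transcript spots and 28095 gene names in all. Each accession was taken by itself, and 6 of the 7 are coding (NM) accessions.

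The cells were either untreated (control) or had received thapsigargin, an inhibitor of the endoplasmic reticulum calcium pump that causes endoplasmic reticulum stress, at 10 µM for 3 h. Both groups were grown in medium with 10% bovine serum. Lysates were separated on a sucrose gradient, and the RNA that sedimented with polysomes (P) was kept apart from free RNA and monosomes (FM), while a gradient fraction between these pools went into neither. Both groups received cycloheximide, which holds ribosomes on mRNA, shortly before lysis. RNA of 3 preparations was pooled per condition, and each condition was measured on 1 two-colour array with P in Cy3 and FM in Cy5. With 1 array per condition no difference could be tested against replicates.

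Sp factors bind GC and GT boxes of promoters through C-terminal zinc fingers, and Oct1 binds the octamer motif through a POU domain made of a POU-specific part and a homeodomain. Sp1, Sp2, Sp3 and Oct1 are present in most cell types and serve many promoters, those of housekeeping, histone and small nuclear RNA genes among them, while Sp4 is best known from neurons. Sedimentation separates mRNAs by the ribosomes they carry, so the log2 ratio of P to FM signal (log2 P/FM) was the measure of translation efficiency. This ratio gives the split between the pools and not the number of ribosomes on an mRNA. The mean of both log2 signals (A) was the measure of abundance in the 2 fractions together.

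In control cells the measured mRNAs of this group lay near or below 0 in log2 P/FM, and after thapsigargin they separated. Signal of the Pou2f1 mRNA shifted from FM to P, with a change of 3.53 in log2 P/FM. For Sp1 log2 P/FM rose by 1.73, and on the unnormalized scale most of this lay in a lower FM signal. The log2 P signal of Sp1 changed by 0.44 on that scale and by -0.04 with normexp background correction. On the unnormalized scale, Sp4 gained signal in both fractions and more of it in P, on a single feature, and Sp3 gained signal in both fractions by similar amounts and remained mostly in FM, with a change of 0.21. These gains of Sp3 and Sp4 did not hold under every background correction and scaling, and with spike-in scaling log2 P/FM of Sp3 was 1.54 in thapsigargin cells. Sp2 was too dim for a ratio.

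The printed sequences below are those the results turn on and those that mark the DNA-binding domains. Capitals mark codons for the recognition helix of the Oct1 homeodomain (18 bases) and for the helix and histidines of a zinc finger of Sp2 (42 bases), which were found by translation of the printed sequence. For the others the first 30 of 60 bases are given, with no capitals, because neither pattern was found in them. Positions cover the whole feature and come from the array files (mm9), with the strand that their order of start and end gives. For Sp1 the span in the files is 1 base longer than the sequence. The files do not say whether a feature lies in an exon, an intron or a UTR.
Pou2f1, NM_198934, A_51_P361492, chr1:167805639-167805698, minus strand: ggagacaggacagcatttgcctaattttat
Pou2f1, NM_198933, A_52_P313246, chr1:167825118-167825177, minus strand: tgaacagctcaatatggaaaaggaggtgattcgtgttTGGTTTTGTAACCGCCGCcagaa
Sp1, NM_013672, A_51_P256919, chr15:102262702-102262762, plus strand: tctgtagttccttcctattaccgttttaat
Sp2, NM_030220, A_52_P76988, chr11:96817091-96817150, minus strand: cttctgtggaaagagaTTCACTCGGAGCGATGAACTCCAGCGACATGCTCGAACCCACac
Sp3, NM_001018042, A_51_P112662, chr2:72774737-72774796, minus strand: agaccacctcagataaaaggctaccttatt
Sp3, NM_001018042, A_52_P522264, chr2:72776176-72776235, minus strand: tgtcagggataggaactgtcaatacttctg
Sp4, NM_009239, A_51_P479758, chr12:119476465-119476524, minus strand: aaatcacgtttgtatccttggcatctttaa

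Of the transcript spots, 42.5% to 46.3% were well above background, depending on array and channel. The highest A of the 153 negative control spots was 4.35, and mRNAs with A above 4.5 on both arrays were counted as detected, which held for 10033 of 18743 coding accessions. Their median change was -0.71 in log2 P/FM and 0.37 in A, 0.02 in the P signal and 0.72 in the FM signal, and changes of members are also given relative to these values. All 8 fibroblast markers tested, Col1a1, Vim and Pdgfrb among them, were detected, while of 11 markers of epithelial, blood, endothelial, liver and muscle cells only the T cell gene Cd3e was, with A of 6.06 in control and 5.93 in thapsigargin cells. The median standard deviation (SD) between spots of the same sequence was 0.10 for the change in log2 P/FM, and between different features of the same mRNA it was 0.32, over 3438 mRNAs. Of changes of at least 1, 19.5% were rises. This share was 37.9% with the processed signals of the scanner software and 38.6% with its log ratio. It was 44.7% after loess, 48.2% after centring, 29.5% with normexp background correction and 99.5% when arrays were scaled to spike-in probes. Lower shares were also seen, at 16.3% without background subtraction, 16.5% with A above 5.5 and 10.3% with A above 7.

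Of the 9 member features, 5 from 4 genes had every signal well above background and passed the filter on A. The remaining 4 were not well above background in FM on either array, and 1 of these, the Sp3 sequence AK047030, was not so in any channel. No member spot was saturated or an outlier. Averaged per accession, 3 passed the filter: Sp1 (NM_013672), Sp3 (NM_001018042) and Pou2f1 (NM_198934). Of these 3, 2 rose in log2 P/FM by 1 or more, against 9.90% of all detected coding mRNAs. The same 2, Sp1 and Pou2f1, were inducible by the thresholds of the study, which ask for log2 P/FM at or below 0 in control cells and a rise of 1 or more, against 8.86% of all. None was sensitive (a change of -0.8 or lower, 47.0% of all), and none was resistant (0.8 or more on both arrays, 3.00% of all). The study named both Sp1 and Oct1 as induced from these arrays, so their calls are not independent evidence. The median change of the 3 was 1.73, beside -0.71 for all detected mRNAs, and is given as a description only. None of the 3 rose in A by 1 or more, against 11.7% of all. With spike-in scaling, however, A of Pou2f1 rose by 1.16 and that of Sp3 by 1.04, beside a median of 0.64 for all.

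**Figure D1:**
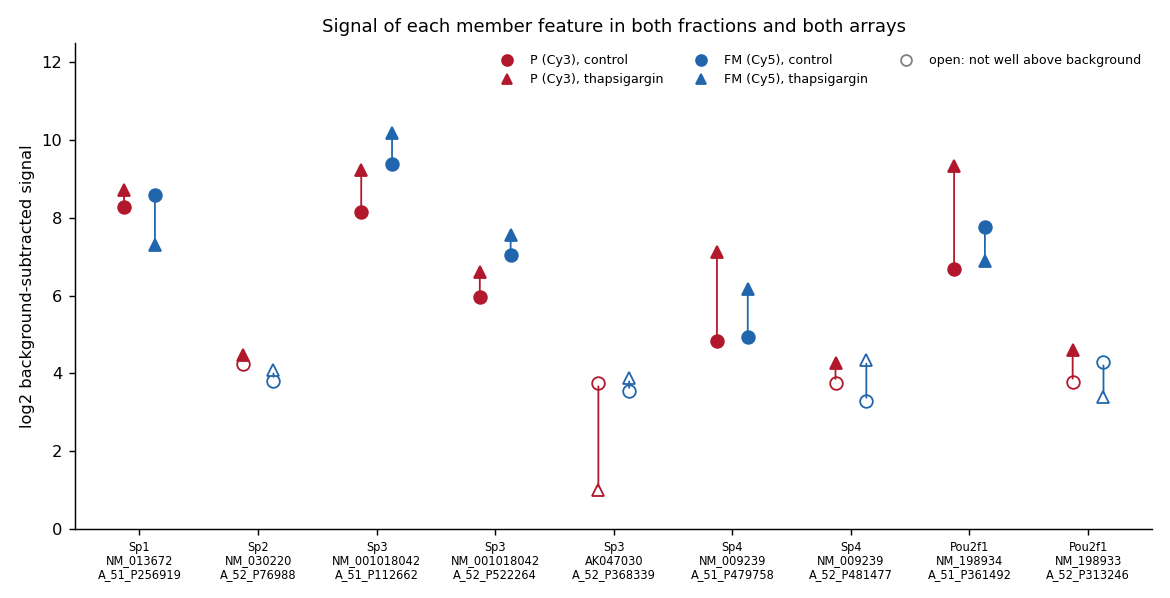
Log2 background-subtracted signal of the 9 member features, P in red and FM in blue, control as circles and thapsigargin as triangles. Open symbols were not well above background. Sp1 and Pou2f1 (NM_198934) have the blue triangle below the blue circle, while both Sp3 features of NM_001018042 and the bright Sp4 feature have each triangle above the circle of its colour.

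Pou2f1 encodes Oct1, the widely expressed POU factor that binds the octamer of histone H2B and small nuclear RNA promoters. In NM_198934 the background-subtracted P signal was 103 in control and 647 in thapsigargin cells, while the FM signal was 219 in control and 119 in thapsigargin cells. The P signal was thus 6.27-fold higher after thapsigargin and the FM signal 1.84-fold lower, so the fraction with the larger signal switched from FM to P. In these bulk lysates a shift in every cell and a larger shift in some of the cells cannot be told apart. P held 32.1% of the summed signal of both channels in control and 84.5% in thapsigargin cells. log2 P/FM went from -1.08 ± 0.05 to 2.44 ± 0.04 (standard error over the pixels of 1 spot, which leaves out all error between spots, labellings and cultures).

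The change of Pou2f1 was 3.53 ± 0.07 (pixel standard error), or 4.24 above the median of all mRNAs. Only 4 of the 10033 detected mRNAs changed by more. In control cells 8.93% of mRNAs had a lower log2 P/FM than Pou2f1, and in thapsigargin cells 99.96% did, so its place moved from near the bottom to near the top of the distribution. Among the 1693 mRNAs whose mean A lay within 0.5 of that of Pou2f1, the median change was -0.58 and 10.1% rose by 1 or more. Pou2f1 (NM_198934) rests on 1 feature. Among single features 0.10% changed by more, and 15.8% of those of like A rose by 1 or more. Its A rose by 0.88, or 0.51 above the median of all, and 16.2% of mRNAs rose more in A.

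The other Pou2f1 accession, NM_198933, was measured with a feature over the homeodomain, 19.5 kb away on the genome from the feature of NM_198934. Its P signal was 13.7 in control cells, which was not well above background, and 24.5 in thapsigargin cells, which was. Its FM signal was 19.7 in control and 10.6 in thapsigargin cells, neither well above background. The measured P signal was 1.79-fold higher after thapsigargin, which is not a lower bound because the control signal was not well above background. Neither log2 P/FM nor its change is given for this accession. Of the 5 NM transcripts that RefSeq lists for Pou2f1, 2 are named on the array, and which transcripts each feature detects was not tested.

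Sp1 is the founding member of the Sp family and an activator of many TATA-less promoters. Its single feature had a P signal of 311 in control and 421 in thapsigargin cells and an FM signal of 387 in control and 158 in thapsigargin cells. P was 1.35-fold higher and FM 2.45-fold lower after thapsigargin, so on these values most of the shift of Sp1 lay in the FM channel, where Pou2f1 shifted mostly in P. This contrast depends on the processing, since with normexp background correction Pou2f1 changed by 1.30 in P and -1.46 in FM, and with spike-in scaling Sp1 changed by 1.95 in P and -2.26 in FM (log2). P held 44.6% of the summed signal in control and 72.8% in thapsigargin cells. log2 P/FM went from -0.31 ± 0.04 to 1.42 ± 0.07 (pixel standard error).

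The change of Sp1 was 1.73 ± 0.08 (pixel standard error), or 2.44 above the median of all mRNAs, and 3.35% of mRNAs changed by more. In control cells 25.4% of mRNAs had a lower log2 P/FM than Sp1, and in thapsigargin cells 97.6% did. Among 1547 mRNAs of like A the median change was -0.76, and 8.34% rose by 1 or more. Sp1 rests on 1 feature. Among single features 5.78% changed by more, and 13.5% of those of like A rose by 1 or more. The A of Sp1 changed by -0.43, or -0.80 relative to the median of all, and 94.0% of mRNAs had a higher change in A. On the unnormalized scale Sp1 was the only detected member accession with a lower A after thapsigargin. With normexp A was also lower for Pou2f1, by -0.08, and Sp3, by -0.13.

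The fall of the FM signal of Sp1 and Pou2f1 was set beside that of other mRNAs, whose FM signal rose in median. Relative to that median, FM changed by -2.01 for Sp1 and -1.59 for Pou2f1 on the log2 scale, and P by 0.42 and 2.63. Across 7 ways of background correction and scaling, the FM change of Sp1 ranged from -2.26 to -1.08 and that of Pou2f1 from -1.85 to -0.65, so both were negative in all 7. The P change of Pou2f1 ranged from 1.30 to 4.16. The P change of Sp1 was between 0.30 and 1.95 in 6 of them and -0.04 with normexp background correction, where the median P change of all mRNAs was -0.74.

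Sp3 shares the GC box with Sp1 and acts as an activator or a repressor. NM_001018042 had 2 features, 1.44 kb apart on the genome. The brighter, A_51_P112662, had a P signal of 282 in control and 605 in thapsigargin cells and an FM signal of 665 in control and 1163 in thapsigargin cells. The dimmer, A_52_P522264, had a P signal of 62.1 in control and 97.1 in thapsigargin cells and an FM signal of 131 in control and 187 in thapsigargin cells. On both features both fractions were higher after thapsigargin on this scale, and FM exceeded P on both arrays. Across the same 7 ways of background correction and scaling, the log2 P change ranged from 0.52 to 2.62 on the brighter and from -0.72 to 2.16 on the dimmer feature, and the FM change from -0.16 to 0.81 and from -0.73 to 0.52. The FM change was negative on both features with spike-in scaling, and both changes of the dimmer feature were negative with normexp.

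On the unnormalized scale the ratio of Sp3 moved little. log2 P/FM went from -1.24 to -0.94 on the brighter feature and from -1.08 to -0.95 on the dimmer. The mean of both was -1.16 ± 0.12 in control and -0.95 ± 0.002 in thapsigargin cells, a change of 0.21 ± 0.12 (SD, n = 2 features), which is smaller than the 0.32 that separates features of the same mRNA in median. This change still lay 0.92 above the median of all mRNAs, and 24.1% of mRNAs changed by more. A rose by 0.77 ± 0.26 (SD, n = 2 features), or 0.39 above the median of all, although with normexp, which moved the median change in A of the same mRNAs to -0.57, it was -0.13. The third feature, AK047030, had no signal well above background, and no ratio is given.

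Sp4 is a GC box factor that is abundant in brain. Its feature A_51_P479758 had a P signal of 28.3 in control and 140 in thapsigargin cells and an FM signal of 30.6 in control and 72.6 in thapsigargin cells. In control cells the P signal was close in size to the local background that had been subtracted, 30.5. The FM signal was well below its own local background, 51.5. Both were still scored as well above background. P was 4.95-fold higher and FM 2.37-fold higher after thapsigargin. With normexp the changes were -0.19 in P and -1.33 in FM (log2), and across the 7 ways they ranged from -0.19 to 3.82 and from -1.33 to 1.47.

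log2 P/FM of that feature went from -0.11 ± 0.13 to 0.95 ± 0.06, a change of 1.06 ± 0.14 (pixel standard error). Of 17173 detected features, 14.1% rose by 1 or more, and 3 of the 5 detected member features did. Near the brightness of the Sp4 feature the share was 21.1%, and 13.3% of all detected features changed by more than it did. The change fell under 1 with median spot signals, at 0.83, and after loess, at 0.81. A of the feature rose by 1.78, which 1.1% of features exceeded, and 12.7% of features rose by 1 or more in A. It was the only 1 of the 5 to do so, but with normexp its A changed by -0.76. With spike-in scaling Pou2f1 and the brighter Sp3 feature also passed 1 in A, at 1.16 and 1.23.

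The second Sp4 feature, A_52_P481477, lies 1.43 kb away. Its P signal was 13.6 in control cells, not well above background, and 19.3 in thapsigargin cells. Its FM signal was 9.72 in control and 20.3 in thapsigargin cells, both not well above background. The measured P signal was 1.42-fold higher, which is not a lower bound, and no change of the ratio is given. Averaged over both features, A in control cells was 4.20, so the accession of Sp4 did not pass the filter.

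Sp2, a zinc finger factor with weaker affinity for GC boxes that is also tied to CCAAT promoters, was measured with the feature over its finger codons. P was 19.0 in control and 22.3 in thapsigargin cells, and FM was 14.1 in control and 17.1 in thapsigargin cells. Only the P signal in thapsigargin cells was well above background. It was 1.17-fold the measured control signal, and this ratio is not a lower bound. Whether the finger sequence of Sp2 also binds RNA of other Sp genes was not tested.

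Ordered by log2 P/FM in control cells, the members with a detected feature ran Sp4, Sp1, Pou2f1 and Sp3. The gap from Sp4 to Sp1 was 0.20 and that from Pou2f1 to Sp3 was 0.08, both within the 0.41 that is the SD of a difference between features, so these neighbours could not be separated. The gap from Sp1 to Pou2f1 was 0.77. In thapsigargin cells the order was Pou2f1, Sp1, Sp4 and Sp3, with gaps of 1.03, 0.47 and 1.89 beside an SD of 0.40. For the change it was the same, with gaps of 1.79, 0.67 and 0.85 beside an SD of 0.46. Over both Sp4 features the SD of the change was 1.14, above both gaps beside Sp4. The second Sp4 feature was not well above background in FM, so the place of Sp4 is uncertain. In A the order of the change was Sp4, Pou2f1, Sp3 and Sp1, and the gap of 0.12 between Pou2f1 and Sp3 was within the SD of 0.25. In thapsigargin cells and in the change, Sp1 and Pou2f1 thus differed from Sp3 by more than features of the same mRNA usually do.

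**Figure D2:**
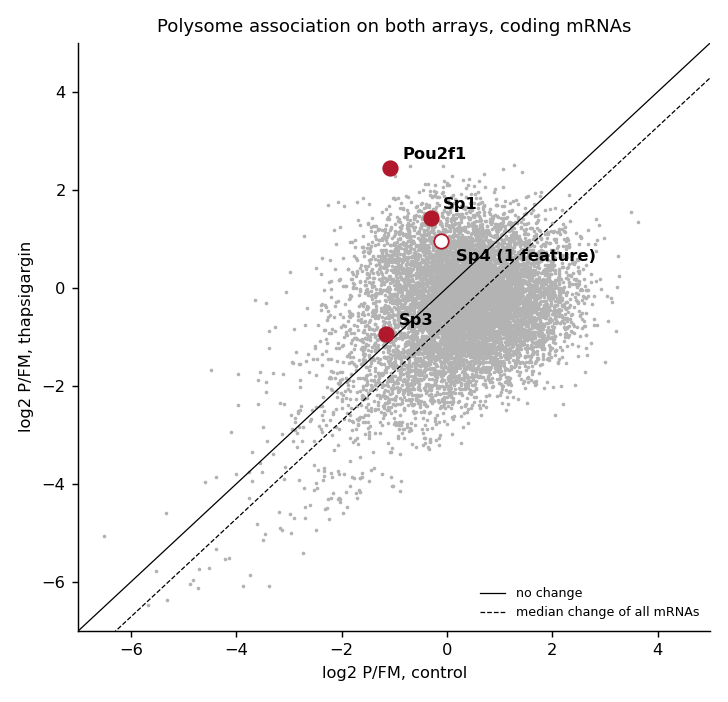
log2 P/FM in control (x axis) and thapsigargin cells (y axis) for 10033 detected coding mRNAs (grey), the 3 detected member accessions (red) and the bright Sp4 feature (open circle). The solid line marks no change and the dashed line the median change of -0.71. Pou2f1, at -1.08 and 2.44, lies at the upper edge of the cloud, and Sp3, at -1.16 and -0.95, lies just above the solid line.

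The result depends on how the arrays are scaled to each other. The 10 spike-in probes changed by -2.44 in median, from -2.67 to -2.16, and scaling the arrays to them added 2.48 to every change. It then came to 6.01 for Pou2f1, 4.21 for Sp1, 3.55 for the Sp4 feature and 2.70 for Sp3, beside a median of 1.77 for all mRNAs, so Sp3 also passed 1. In the other 16 sets of values, the one reported included, the change of Sp1 lay between 1.48 and 2.36, that of Pou2f1 between 2.76 and 4.15 and that of Sp3 between 0.07 and 0.84. Sp3 lay above the median of all mRNAs except with normexp, where the filter removed no mRNA and the median over 18743 was 0.33. Over the same 10033 mRNAs the normexp median was -0.04, which is below the 0.07 of Sp3.

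**Figure D3:**
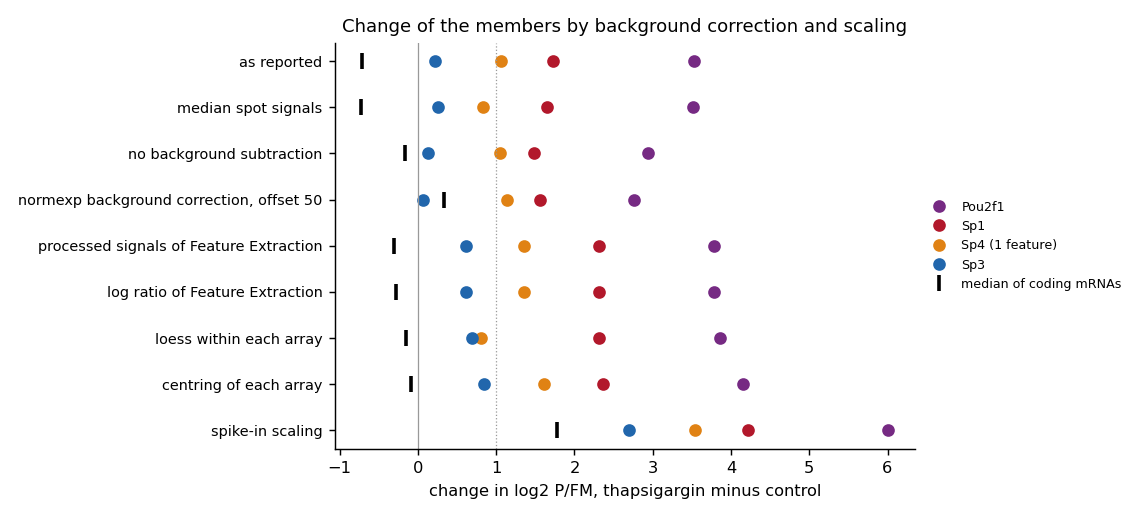
Change in log2 P/FM (x axis) of Pou2f1, Sp1, the bright Sp4 feature and Sp3 as reported and under 8 other background corrections and scalings (rows), with a dotted line at 1. Black ticks mark the median of the coding mRNAs that passed the filter on A in each row. With normexp and without background subtraction the filter removed no mRNA, so those ticks cover all 18743, undetected ones included. Pou2f1 and Sp1 lie above 1 in every row, and Sp3 does so with spike-in scaling only.

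The genes most like each member accession over its 4 log2 signals were found among 5502 bright coding mRNAs, after subtraction of each gene's mean, by Euclidean distance over n = 4 values. For Pou2f1 they were Fryl (NM_028194), Cflar (NM_207653) and Atf4 (NM_009716), with distances of 0.51, 0.55 and 0.57 and changes in log2 P/FM of 2.87, 2.76 and 3.42. For Sp1 they were Zfp764 (NM_146203), Elovl6 (NM_130450) and Zfp747 (NM_175560), at distances of 0.37 to 0.39 with changes of 1.02, 1.27 and 1.30. For Sp3 they were Crls1 (NM_001024385), Tmem39a (NM_026407) and Tmf1 (NM_001081111), at distances of 0.16 to 0.18 with changes of 0.30, 0.17 and 0.43. Sp3 thus had closer matches than Sp1 or Pou2f1.

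Close relatives were mostly not detected. None of the 4 other Sp factors on the array was detected, their highest A being 4.44. Of 13 other POU factors 1 was detected, Pou6f1, which is best known from brain, with an A of 4.83 in control and 4.91 in thapsigargin cells, and not every signal of it was well above background. Pou2f2, the lymphoid Oct2, and Pou5f1, the pluripotency factor Oct4, were not detected.

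Partners of Oct1 went in both directions. The list holds the small nuclear RNA activating complex (SNAPc), the Hcfc proteins, Zfp143 and others, and 9 of its 11 accessions were detected. Of these, 2 rose by 1 or more in log2 P/FM and 2 fell by 1 or more, beside 9.90% of all detected mRNAs that rose and 4091 of 10033 that fell. In median these 9 accessions changed by -0.43, but the list median was positive with normexp, at 0.30, with the processed signals, at 0.25, with the log ratio, at 0.10, after loess, at 0.19, after centring, at 0.20, and with spike-in scaling, at 2.05. Snapc4, the SNAPc subunit that contacts Oct1, rose by 1.25 from -0.63 to 0.62. Sfpq, a splicing and transcription factor of the paraspeckle, rose by 1.29 from -0.43 to 0.86, while its partner Nono fell by 1.29, from 0.73 to -0.56. Snapc2 fell by 1.36, from 1.58 to 0.23. Hcfc1, the coactivator that joins Oct1 in the complex induced by the viral protein VP16, changed by 0.27.

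All 12 accessions of cofactors and modifying enzymes of Sp1 were detected, with a median change of 0.20, or 0.92 above the median of all. Of them 2 rose by 1 or more and 1 fell by as much, beside 9.90% of all detected mRNAs that rose and 4091 of 10033 that fell. The SUMO ligase Pias1 rose by 1.32, from 0.18 to 1.50, and Rnf4, a ubiquitin ligase that binds SUMO chains, fell by 1.27, from 1.04 to -0.23. The second rise was that of Ogt, which adds O-GlcNAc to Sp1, for which not every signal was well above background. The coactivator Crebbp changed by 0.29 and the corepressors Sin3a and Ncor1 by 0.12 and 0.63.

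TFIID and Mediator, the general machinery that these activators contact, had negative median changes on the unnormalized scale and positive ones, 1.98 and 1.58 with spike-in scaling and 0.38 and 0.02 with normexp, and that of TFIID was also 0.12 after centring. The median of all mRNAs, 1.77 with spike-in scaling and 0.33 with normexp, lay above that of Mediator and below that of TFIID in both. Of 14 detected TFIID accessions 4 fell by 1 or more and 0 rose, with a median of -0.51. The largest falls among its bright accessions were those of Taf10 at -2.75, Taf11 at -2.12 and Taf12 at -2.01. Taf4a, the subunit best known as a contact of Sp1, was detected, but not with every signal well above background. Of 31 Mediator accessions 15 fell by 1 or more and 2 rose, with a median of -0.90. Med30, Med25 and Med9 changed by -3.03, -2.78 and -2.77, while Med23 rose from -0.79 to 0.32. Of all detected mRNAs 4091 fell by 1 or more and 993 rose.

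Other widely expressed promoter activators, such as the NF-Y, NRF1, YY1, USF, GABP and NFI factors, had a median change of -0.24 over 20 accessions, with 2 rises and 6 falls of at least 1. Of all detected mRNAs 9.90% rose by 1 or more, and 4091 of 10033 fell by as much. The median of the list was positive with normexp, at 0.42, after centring, at 0.39, with A above 7, at 0.04, and with spike-in scaling, at 2.24. Both rises were those of Nfib, by 2.22 in NM_001113209 and 1.07 in NM_008687, whereas the related Nfix fell by 1.66 and Nfic by 1.78 in NM_026756 and 1.46 in NM_008688.

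Textbook target genes of Sp1 or Oct1 had a median change of 0.46 over 10 accessions, with 1 rise and 2 falls of at least 1. Beside them, 9.90% of all detected mRNAs rose by 1 or more, and 4091 of 10033 fell by as much. Gadd45a, a stress gene with octamer sites in its promoter, rose by 1.15 in log2 P/FM, while its A rose by 3.30. Odc1, which makes putrescine, fell by 3.44, and Tk1, the thymidine kinase of cycling cells, by 1.60. In A, 3 of the 10 accessions, from 2 genes, rose by 1 or more, against 11.7% of all: Gadd45a and both accessions of Vegfa, the angiogenic growth factor, by 1.46 and 1.04. The medians of the lists of partners, cofactors, machinery, other activators and targets were all positive with normexp, from 0.02 for Mediator to 0.54, and with spike-in scaling, from 1.58 for Mediator to 2.94 for the targets. Over all mRNAs the median was 0.33 with normexp and 1.77 with spike-in scaling. Mediator lay below both and the partners of Oct1 below the first, while the other lists lay above. With normexp the filter removed no mRNA, so its medians also cover undetected accessions. Under spike-in scaling a fall smaller than 2.48 turns into a rise.

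**Figure D4:**
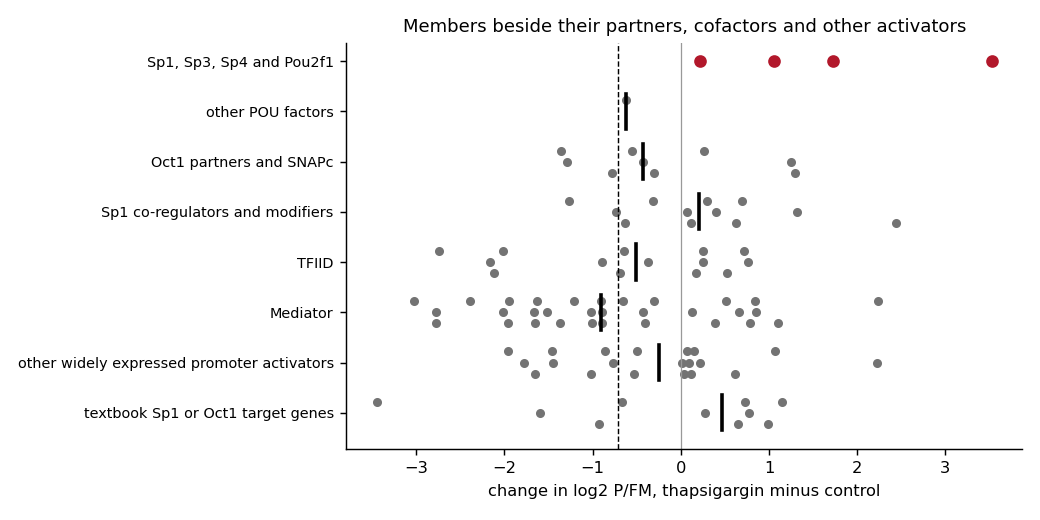
Change in log2 P/FM (x axis) of Sp1, Sp3, Pou2f1 and the bright Sp4 feature (red) and of each detected accession of the lists of partners, cofactors, general machinery, other activators and targets (grey), with black bars at list medians and a dashed line at the median of all coding mRNAs, -0.71. Pou2f1, at 3.53, lies to the right of every accession drawn.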

How the data were processed

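Members and gene lists were chosen with earlier results of these data known. Per the labels, P and FM RNA of 3 pooled preparations was labelled from 300 ng in total, P with Cy3 and FM with Cy5. The study states that labelling kept the proportions of the fractions, with more P than FM RNA in control and the reverse under stress. The input ratio thus differed between the arrays, and how this bears on the spike-in probes was not tested. The deposited scanner files hold raw spot and local background intensity values that the authors extracted with Feature Extraction (10.7.1.1 per the file headers), besides processed intensity values and a deposited log10 ratio of Cy5 to Cy3. The authors also deposited log2 ratios of Cy3 to Cy5, of which 99.99% and 100% equalled the unnormalized values computed here within 0.001.

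From each mean spot signal its median local background was subtracted, with a floor of 0.5. log2 P/FM and A were computed without normalization, as the study's methods name none. Outlier spots (295, 0.68%) were left out, and features were averaged per accession. For member features with a signal not well above background no log2 P/FM is given, and folds of P are measured ratios rather than bounds. The number of arrays limits the precision.

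Named genes were all members, the 3 nearest genes of each accession well above background throughout, and of each list up to 3 per direction with changes of at least 1, A above 7 on both arrays and all signals well above background, plus genes whose role is described. Symbols came from RefSeq (GRCm38.p6), used for names only, and an accession whose current symbol is another gene was left out of a list. Alternatives (16) covered normexp (offset 50) and loess in limma 3.58.1 under R 4.3.3, other signals, scalings, filters and units. Steps were tested on simulated data.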

Additional observations from a re-analysis of the deposited data

How the results depend on the processing

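The change of Pou2f1 was 2.76 with normexp, 2.94 without background subtraction, 6.01 with spike-in scaling, 3.86 after loess and 4.15 after centring. That of Sp1 was 2.32 with the processed signals and with the log ratio of Feature Extraction, 4.21 with spike-in scaling, 2.31 after loess and 2.36 after centring, and that of Sp3 under the same 5 was 0.62, 0.62, 2.70, 0.69 and 0.84. The median over detected member accessions, 1.73 as reported, was 0.82 with normexp, 0.57 without background subtraction, 2.32 with the log ratio, 4.21 with spike-in scaling, 2.31 after loess, 2.36 after centring, 0.25 without a filter on A, 1.40 over features well above background and 1.06 with each feature as the unit. It follows which accessions pass, of which there were 3 as reported and 7 with no filter. With the processed signals 4 member accessions rose by 1 or more and 1 was resistant, and without a filter 1, the dim Sp3 sequence, fell by 1 or more and was sensitive. The number inducible stayed within 2 to 3. No change in log2 P/FM turned sign for Sp1, Sp3 or Pou2f1 over 17 sets of values, or for the bright Sp4 feature over 11. The authors' values, the filters, the choice of features and the averaging returned the same value for Sp1, Sp3 and Pou2f1. For these 3, centring added 0.63 and spike-in scaling 2.48, so only the remaining settings could turn a sign. The causes of the differences between settings were not tested.

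Signal over background limits Sp2, the second features of Sp4 and Pou2f1 and the third of Sp3. The change of Sp1, of the bright Sp4 feature and of Pou2f1 rests on 1 spot each. With normexp the change in A was -0.08 for Pou2f1, -0.13 for Sp3 and -0.76 for the bright Sp4 feature. No paired analysis was possible because each condition has 1 array and the result comes from no test.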
